A study of Mus musculus with 6 samples.

Results

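Solute carriers are membrane proteins that move amino acids, ions, vitamins, nucleobases and other small molecules across the membranes of the cell. Here they are the rows whose symbol begins with Slc, a family number, the letter a or b and a member number, leaving out the families Slc2a, Slc16a, Slc20a, Slc25a and Slc31a. That left 66 genes of the 7384 in the tables; the tables held 103 rows with a solute carrier symbol, and 37 were left out by the rule. By transported substrate they were sorted into 18 amino acid carriers, 4 zinc carriers, 9 anion carriers, 1 nucleobase carrier that stands for the nucleoside class, 9 organic ion carriers, 5 carriers of the Slc35 family of nucleotide sugar carriers, 6 carriers of other cations and 12 of other solutes. The remaining 2, Slc9a3r1 and Slc9a3r2, carry the symbol of an exchanger but encode scaffold proteins that bind it. Not all 66 sit in the plasma membrane: 23 are known mainly from the lysosome, Golgi, endoplasmic reticulum, mitochondrion or other membranes inside the cell.

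The cells were vascular smooth muscle cells grown from mouse aorta, sequenced as 3 siSirt6 libraries, from cultures given a small interfering RNA against the deacylase gene Sirt6, and 3 Control libraries, both after 48 h. The sources used here do not give what the Control cultures received, or the age, sex or strain of the mice. The labels do not say that the 3 libraries of a group came from separate mice or cultures, so p-values measure the spread between these libraries, which may be technical.

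A smooth muscle cell takes up taurine, arginine, glutamine and other amino acids through carriers of the plasma membrane, and carriers of the lysosome return those freed by protein breakdown to the cytosol. Bicarbonate and chloride carriers set the pH and chloride content of the cell, on which the tone of an artery depends. Zinc carriers of the Slc39 family bring zinc into the cytosol and those of the Slc30 family take it out of the cytosol, into vesicles or the outside.

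The target of the siRNA, Sirt6, lies at 81621785 to 81627797 of chromosome 10 (GRCm38) on the minus strand. Its normalised read count was 44.5, 59.8 and 63.5 in siSirt6 libraries and 251.7, 257.0 and 270.4 in Control libraries. It was at 0.215 of its Control level (log2 fold change -2.21 ± 0.141 SE, adjusted p = 1.16e-15, limma with Benjamini-Hochberg adjustment). The listed genes took 14458847 to 14866718 reads in 5 libraries. This range leaves out siSirt6 replicate 1, where the value of 1 read lay too near 1 for its reads to be accepted as recovered. The tables hold almost only genes that differ: 99.8% of the 7179 genes tested had an adjusted p under 0.05, 50.5% higher and 49.3% lower in siSirt6, and the group ranges did not overlap for 96.8%. A call for a carrier is therefore close to given, and its direction and size are what is described here. Of the 10 smooth muscle markers, 8 were tested, 6 higher and 2 lower in siSirt6, and their summed level was 119618.4 to 120491.5 in siSirt6 and 77765.3 to 78076.1 in Control libraries. Most of these sums was Acta2 alone, with means of 96835.8 in siSirt6 and 58252.9 in Control. The adventitial fibroblast markers, 8 of 10 tested, were lower in 5 cases and higher in 3, with sums of 75842.7 to 77130.9 in siSirt6 and 91304.4 to 92276.6 in Control libraries. Here most of the sums was Gsn alone, with means of 57433.2 in siSirt6 and 72100.0 in Control. The 3 macrophage markers tested of 12 were all higher, with sums of 1977.6 to 2017.9 in siSirt6 and 1776.9 to 1821.7 in Control libraries, mostly Lyz2, with means of 1616.1 and 1498.3. The adipocyte markers, 5 of 8 tested, split into 3 higher and 2 lower, at sums of 2665.2 to 2793.4 in siSirt6 and 2555.8 to 2687.2 in Control libraries, and the 4 tested of 10 markers of Schwann cells and neurons into 1 higher and 3 lower, at sums over the 5 listed of 3449.3 to 3629.9 in siSirt6 and 2246.2 to 2284.1 in Control libraries. The 1 higher, Tubb3, made up most of the last sums, with means of 2982.1 in siSirt6 and 1321.2 in Control. In these bulk libraries, fewer cells of a type and less RNA per cell cannot be told apart, and the part of the markers in the carriers' differences was not tested.

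More carriers were lower than higher after Sirt6 knockdown. Of the 64 tested, 38 (59.4%) were lower and 26 (40.6%) higher in siSirt6, beside 49.3% lower and 50.5% higher over all genes tested. The class counts below are to be set beside the same shares. The median log2 fold change of the carriers was -0.20, against 0.08 over all genes tested. In 64 of 64 the group ranges did not overlap, beside 96.8% of all genes tested. These counts include Slc6a12, which passed the filter on low values only through its siSirt6 libraries and so had to differ; without it 25 of 63 were higher and 5 past 2-fold. Exon bases of 18 carriers are shared with another annotated gene, 2 of them, Slc45a3 and Slc10a3, with one on the same strand; the kit keeps strand, but the sources used here do not say whether counting used it. The differences were small: 6 carriers (9.38%) were past 2-fold, beside 7.72% of all genes tested. Among the 61 carriers with a mean of at least 50 the ratios of siSirt6 to Control means ran from 0.489 for Slc22a18 to 2.73 for Slc14a1, and among the 24 with a mean of at least 1000 from 0.593 for Slc6a6 to 1.53 for Slc9a3r2. The summed level of the 66 genes was 81159.2 ± 757.3 in siSirt6 and 83558.3 ± 1101.4 in Control (SD, n = 3 each), and their share of all listed values was 0.531% ± 0.0037 in siSirt6 and 0.593% ± 0.0083 in Control. When libraries were instead scaled to the total of the listed genes, the median over all genes moved by -0.119, to -0.03, and that of the carriers to -0.32, with 20 carriers higher and 38 lower. With that scaling 2710 of all genes were higher and 3567 lower, so 43.2% of the calls over all genes were higher. With a joint trend on transcript length and GC content removed, 24 carriers were higher and 29 lower and their median was -0.07. Over all genes 2649 were then higher and 2619 lower, with a median of -0.00. Which of the 2 properties the change goes with was not tested.

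**Figure D1:**
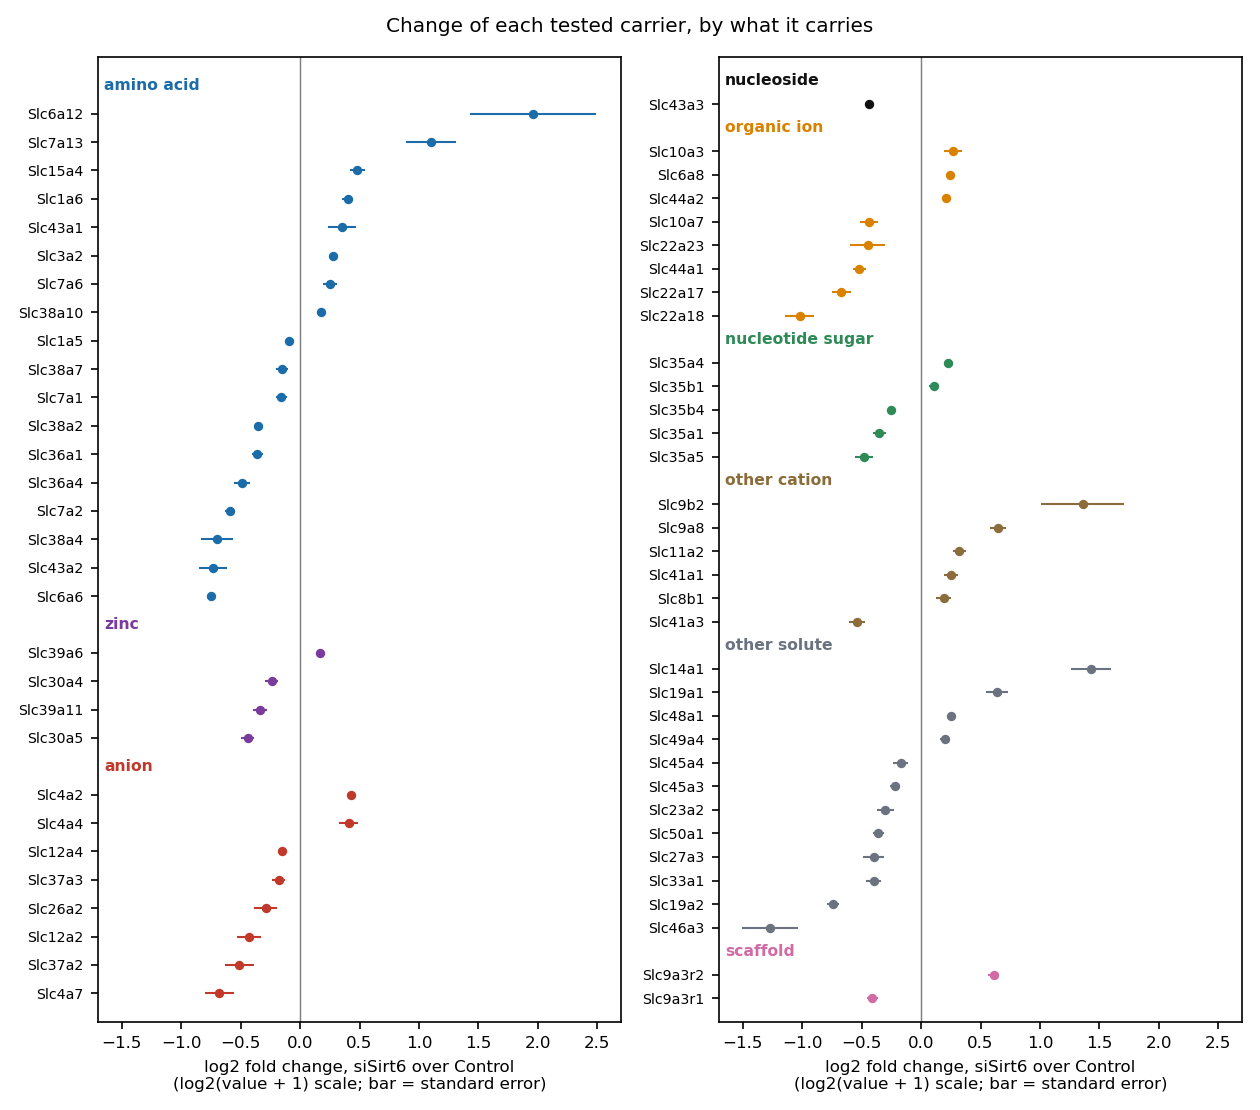
The plot gives the log2 fold change of siSirt6 over Control with its standard error for each tested carrier, by class. Most classes hold points on both sides of 0, between -1.27 and 1.96, and the class of other cations lies mostly above 0.

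Amino acid carriers went both ways, with 8 of 18 higher and 10 lower in siSirt6, and a median log2 fold change of -0.12. Without the low Slc6a12, 7 of 17 were higher. Their summed level was 27455.0 ± 136.5 in siSirt6 and 29615.7 ± 437.6 in Control (SD, n = 3 each), and summed per kilobase 7341.9 ± 26.4 in siSirt6 and 7407.8 ± 122.9 in Control, a ratio of 0.991. The clearest fall was that of Slc6a6, the sodium-coupled taurine transporter, on chromosome 6 at 91684053 to 91759066 (plus strand). Its normalised read counts were 3028.8, 3176.1 and 3004.5 in siSirt6 and 5200.8, 5158.3 and 5165.0 in Control libraries. Every siSirt6 library lay far below every Control library, at 0.593 of the Control level (log2 fold change -0.75 ± 0.0283 SE, adjusted p = 4.61e-22, limma). Once the smooth dependence of fold change on transcript length and GC, here called the length and GC trend, had been subtracted, the fall was -0.52.

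Among the carriers of neutral amino acids, 4 described next were lower and 1 higher. Slc38a2, which takes up alanine, glutamine and other small neutral amino acids and is induced when they run short, stood at 1744.3, 1811.2 and 1830.6 in siSirt6 and 2335.0, 2237.4 and 2298.5 in Control libraries. The groups were apart, at a ratio of 0.784, but after removal of the length and GC trend the difference was -0.07 on the log2 scale with an adjusted p of 0.0678. Its relative Slc38a4, with 27.1 per kilobase of transcript in siSirt6 libraries beside 293.6 for Slc38a2, stood at 97.9, 129.9 and 91.6 in siSirt6 and 153.2, 187.9 and 175.8 in Control libraries (log2 fold change -0.70 ± 0.137 SE, adjusted p = 2.59e-05). Slc43a2, a facilitator of large neutral amino acids such as leucine and phenylalanine, stood at 138.4, 112.4 and 122.8 in siSirt6 and 217.6, 210.3 and 192.2 in Control libraries (log2 fold change -0.73 ± 0.118 SE, adjusted p = 1.5e-06). Its neighbour in function, Slc43a1, was higher at a ratio of 1.28, with means of 176.2 ± 17.4 in siSirt6 and 138.0 ± 6.72 in Control; with adjustment over all annotated genes its p was 0.0535, and with libraries scaled to listed totals 0.0701. Slc1a5, the exchanger through which many cells take up glutamine, was the most abundant amino acid carrier per kilobase and was slightly lower, at 4901.6, 4929.6 and 5079.6 in siSirt6 and 5482.8, 5112.6 and 5313.7 in Control libraries (log2 fold change -0.09 ± 0.0275 SE, adjusted p = 0.00229). The lowest Control library of Slc1a5 lay only just above the highest siSirt6 library. The difference was -0.21 with listed totals and -0.20 with the trend removed.

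Slc7a2 and Slc7a1, plasma membrane carriers of arginine, the substrate of nitric oxide synthases and arginases, were lower. Slc7a2 stood at 1024.4, 1044.3 and 1004.3 in siSirt6 and 1609.0, 1536.4 and 1494.1 in Control libraries, a ratio of 0.662 whose log2 value of -0.59 became -0.27 with the trend removed. Slc7a1 stood at a ratio of 0.895; its log2 value of -0.16 turned to 0.10 with the trend removed, so its direction depends on that step. The CD98 heavy chain and a light chain that pairs with it were higher. Slc3a2, the heavy chain itself, a single-pass glycoprotein that carries several light-chain exchangers to the cell surface, stood at 4532.8, 4398.7 and 4504.1 in siSirt6 and 3736.2, 3538.2 and 3773.3 in Control libraries. All siSirt6 values were above all Control values, at a ratio of 1.22 (log2 0.28). Slc7a6, a light chain that exports cationic amino acids in exchange for neutral ones, had a ratio of 1.19, with means of 907.2 ± 27.1 in siSirt6 and 761.8 ± 63.5 in Control. Slc7a13, a light-chain relative known from kidney as an acidic amino acid and cystine exchanger, was low, at 74.2, 73.2 and 105.1 in siSirt6 and 32.2, 53.5 and 31.9 in Control libraries (log2 fold change 1.10 ± 0.212 SE, adjusted p = 2.15e-05).

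Among the remaining amino acid carriers, Slc1a6, a glutamate transporter known best from cerebellar Purkinje cells, had means of 1114.6 ± 27.5 in siSirt6 and 844.5 ± 31.7 in Control, a ratio of 1.32. Slc6a12, a betaine and GABA transporter, was low, at 11.9, 12.4 and 14.6 in siSirt6 and 2.9, 4.9 and 1.0 in Control libraries. Slc38a10, whose protein is known from membranes inside the cell, had rank 3 among amino acid carriers per kilobase and stood at 5219.4 ± 126.7 in siSirt6 and 4604.5 ± 38.1 in Control (log2 fold change 0.18 ± 0.0263 SE, adjusted p = 2.43e-07), and Slc36a4, a high-affinity carrier of proline and tryptophan, had a ratio of 0.708. Of the lysosomal carriers, Slc15a4, which moves histidine and peptides out of the lysosome, stood at 853.4, 814.4 and 794.0 in siSirt6 and 580.6, 531.6 and 651.9 in Control libraries, a ratio of 1.40. The proton-coupled Slc36a1 stood at 1115.4, 1104.1 and 1116.7 in siSirt6 and 1498.8, 1410.8 and 1363.7 in Control libraries, a ratio of 0.781. The glutamine exporter Slc38a7 was slightly lower, at a ratio of 0.899. Lysosomal amino acid carriers thus went both ways.

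**Figure D2:**
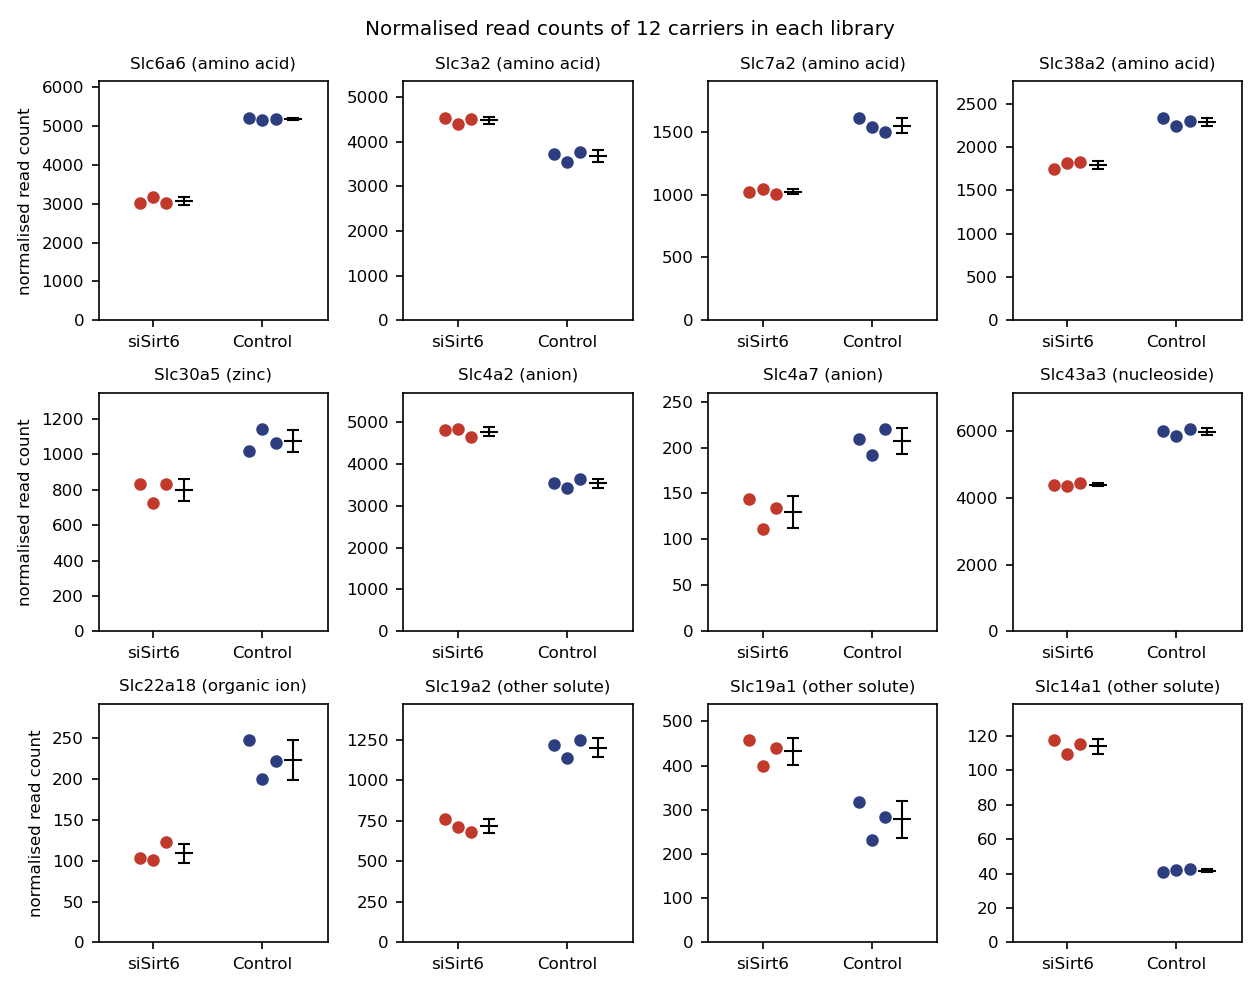
The plot gives the normalised read count of 12 carriers in each library on linear axes from 0, siSirt6 left of Control, with 1 point per library and the mean and SD of 3 libraries as bars. In each panel the points of the groups do not overlap, and the taurine carrier Slc6a6 lies at 3004.5 to 3176.1 in siSirt6 and 5158.3 to 5200.8 in Control libraries.

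Several lysosomal carriers hold in their promoters the core of the CLEAR element, the letters TCACGTG, through which the TFEB and TFE3 factors act on lysosomal genes; those factors were not analysed here. RefSeq promoter windows of GRCm38.p6, 250 bases before to 50 after the start, were matched for 49 of the 66 genes. The core, on either strand, stood in 7 of them (14.3%), beside 4.29% of all genes with a window and 7.3% of the listed genes with one. The 7 were Slc36a1, Slc38a7, Slc37a3, Slc49a4, Slc33a1, Slc35a5 and Slc1a6; 2 of them, Slc49a4 and Slc1a6, were higher in siSirt6 and the other 5 lower. The core did not mark out lysosomal carriers, since Slc33a1, Slc35a5 and Slc1a6 are not described here as lysosomal. The lysosomal Slc46a3 had a window without the core. The lysosomal Slc15a4 and Slc48a1 were not among the 7, but whether they had a matched window is not given here. The 4 windows printed here belong to carriers of the lysosome, 3 lower and 1 higher, and are shown so that the position and number of the cores can be read. Capitals mark the core, the letters TGACNNNGC of the antioxidant response element and the letters TGATGNAA of an amino acid response element; in Slc36a1 a core overlaps an antioxidant element, and in Slc49a4 a core overlaps an amino acid response element. Slc36a1 is at chr11:55204090-55204389 (plus strand), Slc38a7 at chr8:95853442-95853741 (minus), Slc37a3 at chr6:39377658-39377957 (minus, the first of its 2 windows) and Slc49a4 at chr16:35769321-35769620 (minus).
Slc36a1: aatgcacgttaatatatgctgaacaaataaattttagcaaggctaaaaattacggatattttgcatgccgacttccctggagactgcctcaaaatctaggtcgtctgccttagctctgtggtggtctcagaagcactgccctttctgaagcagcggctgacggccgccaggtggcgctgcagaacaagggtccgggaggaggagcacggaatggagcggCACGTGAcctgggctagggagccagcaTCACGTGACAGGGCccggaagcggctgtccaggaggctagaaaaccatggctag
Slc38a7: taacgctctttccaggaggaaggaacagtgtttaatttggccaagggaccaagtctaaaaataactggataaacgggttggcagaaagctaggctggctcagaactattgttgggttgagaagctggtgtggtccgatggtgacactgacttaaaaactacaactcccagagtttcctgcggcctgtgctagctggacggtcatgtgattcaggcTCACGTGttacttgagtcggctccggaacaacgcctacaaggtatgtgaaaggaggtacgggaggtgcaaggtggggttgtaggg
Slc37a3: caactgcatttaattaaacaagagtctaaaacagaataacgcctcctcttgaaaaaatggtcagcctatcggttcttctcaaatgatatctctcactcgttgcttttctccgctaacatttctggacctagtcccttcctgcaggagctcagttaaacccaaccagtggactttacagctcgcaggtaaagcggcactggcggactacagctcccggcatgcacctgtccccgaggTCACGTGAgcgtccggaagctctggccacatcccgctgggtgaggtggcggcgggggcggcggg
Slc49a4: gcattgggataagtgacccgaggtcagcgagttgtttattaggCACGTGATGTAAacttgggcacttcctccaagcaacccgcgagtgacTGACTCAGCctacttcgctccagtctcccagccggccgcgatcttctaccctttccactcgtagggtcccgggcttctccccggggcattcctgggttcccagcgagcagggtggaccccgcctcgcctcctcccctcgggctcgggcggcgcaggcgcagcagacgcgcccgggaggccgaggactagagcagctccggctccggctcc

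Slc36a1 held the core at 2 places near its start, and the other windows shown held 1. The antioxidant letters were found in 14 of the 49 (28.6%), beside 14% of all genes and 17.4% of the listed ones, the amino acid response letters in 2 (4.08%), beside 4.51% and 2.56%, and the TATAAA of a TATA box in 6 (12.2%), beside 15.7% and 9.46%. These matches describe letters in a window and say nothing of a factor at work there.

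Of the 4 zinc carriers, 3 were lower and 1 higher, and their median log2 fold change was -0.29. Slc39a6, which brings zinc into the cell across the plasma membrane, had the highest level per kilobase of the 4 and stood at 2764.7, 2784.4 and 2740.1 in siSirt6 and 2471.6, 2427.3 and 2457.9 in Control libraries. Its siSirt6 values were all higher, at a ratio of 1.13 (log2 fold change 0.17 ± 0.0314 SE, adjusted p = 9.89e-06), but with libraries scaled to listed totals the difference was 0.05 with an adjusted p of 0.105. Slc30a5, which loads zinc into the secretory pathway for enzymes such as alkaline phosphatase, stood at 831.6, 725.7 and 834.6 in siSirt6 and 1021.6, 1144.0 and 1066.2 in Control libraries (log2 fold change -0.44 ± 0.0562 SE, adjusted p = 3.46e-08). Slc39a11, a carrier described in the Golgi and nucleus, stood at 708.0, 635.0 and 711.8 in siSirt6 and 821.6, 852.9 and 922.3 in Control libraries (log2 fold change -0.34 ± 0.0585 SE, adjusted p = 4.45e-06). Slc30a4, a vesicular zinc exporter, had means of 727.3 ± 25.8 in siSirt6 and 857.6 ± 57 in Control (log2 fold change -0.24 ± 0.0566 SE, adjusted p = 0.000325), a difference that turned to 0.04 with the length and GC trend removed. In the list of zinc-binding and zinc-sensing genes, 3 of 8 were tested. The metallothionein Mt1, which buffers zinc, stood at 22472.5 ± 164.8 in siSirt6 and 15116.4 ± 545.9 in Control, a ratio of 1.49, and Mt3 at a ratio of 1.87, while the zinc finger protein Zfp36 was at 0.865. With the trend removed the log2 values of Mt1 and Mt3, 0.57 and 0.87 before, were 0.21 and 0.39.

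Among the anion carriers, 2 were higher and 6 lower of the 8 tested, with a median log2 fold change of -0.23. The bicarbonate carriers went both ways. Slc4a2, which exchanges chloride for bicarbonate and so lowers cell pH, stood at 4810.6, 4829.6 and 4638.3 in siSirt6 and 3546.9, 3420.4 and 3626.5 in Control libraries. Each siSirt6 library was above each Control library (log2 fold change 0.43 ± 0.0288 SE, adjusted p = 4.34e-15); its exons share 1141 bases with Fastk on the other strand. The sodium bicarbonate cotransporter Slc4a4 stood at 427.2, 401.0 and 452.7 in siSirt6 and 338.6, 294.0 and 329.3 in Control libraries, a ratio of 1.33. The electroneutral Slc4a7, which also takes up bicarbonate with sodium, was lower at 144.4, 111.3 and 134.2 in siSirt6 and 209.8, 191.8 and 220.2 in Control libraries (log2 fold change -0.68 ± 0.12 SE, adjusted p = 6.37e-06).

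The chloride cotransporters of the Slc12 family that were tested, Slc12a2 and Slc12a4, were lower. Slc12a2, the sodium-potassium-chloride cotransporter that loads smooth muscle with chloride, stood at 209.6, 189.7 and 196.7 in siSirt6 and 245.9, 292.1 and 265.6 in Control libraries (log2 fold change -0.43 ± 0.0987 SE, adjusted p = 0.000214). With the trend removed its difference was -0.13 and the adjusted p 0.217. The potassium-chloride cotransporter Slc12a4, which moves chloride out, had the highest level per kilobase of the chloride cotransporters and stood at 2723.4 ± 97.2 in siSirt6 and 3029.8 ± 41.8 in Control (log2 fold change -0.15 ± 0.0322 SE, adjusted p = 6.15e-05). Slc12a1, the kidney cotransporter, was not tested, at 22.7, 20.6 and 6.2 in siSirt6 and 4.9, 1.9 and 7.7 in Control libraries, which overlap. Slc26a2, a sulfate carrier whose substrate is used for matrix proteoglycans, had a ratio of 0.821 that became 0.04 on the log2 scale with the trend removed. Slc37a2, a phosphate-linked glucose-6-phosphate exchanger of the endoplasmic reticulum, stood at 110.7, 111.3 and 125.9 in siSirt6 and 161.0, 174.3 and 161.3 in Control libraries (log2 fold change -0.51 ± 0.123 SE, adjusted p = 0.000347). The lysosomal Slc37a3, whose promoter window was also printed, was at 0.883; its adjusted p was 0.207 with the trend removed. Of the list of kinases and channels that govern chloride transport, 7 of 14 were tested, 3 higher and 4 lower. Wnk1, the kinase that switches these cotransporters, was at 9338.8 ± 173.3 in siSirt6 and 10801.5 ± 168.7 in Control, a ratio of 0.865. With the trend removed its log2 value was 0.09. Subunits of the volume-regulated anion channel went both ways, with Lrrc8a at a ratio of 1.43 and Lrrc8b at 0.502. The osmotic-stress factor Nfat5 was at 0.714, a log2 value of -0.49 that was -0.17 with the trend removed.

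The nucleoside class held 1 gene, Slc43a3, a purine nucleobase carrier, on chromosome 2 at 84936579 to 84958509 (plus strand). Per kilobase it had the highest level of the 66 in Control libraries. Its counts were 4400.3, 4358.5 and 4451.0 in siSirt6 and 6014.6, 5869.1 and 6069.9 in Control libraries, and no library of one group came near the other (log2 fold change -0.44 ± 0.0256 SE, adjusted p = 8.85e-17). It kept the fall with the trend removed, at -0.49. In the list of nucleoside and nucleotide salvage, whose enzymes turn bases and nucleosides into nucleotides or break them down, 7 of the 10 tested of 24 were higher and 3 lower, with a median log2 fold change of 0.63 beside 0.08 over all genes. Aprt, which turns adenine into AMP, stood at 4346.2 ± 88.1 in siSirt6 and 2321.3 ± 20.4 in Control, a ratio of 1.87, Ada at 1.87, Uck2 at 1.69 and Pnp at 1.41. With the trend removed the log2 value of Aprt went from 0.90 to 0.49 and that of Ada from 0.90 to 0.63. That of Uck2 went from 0.76 to 0.88, and that of Pnp stayed at 0.49.

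Of the organic ion carriers, 5 of the 8 tested were lower and 3 higher, with a median log2 fold change of -0.44. Slc22a18, an organic cation carrier of the maternally expressed imprinted cluster on mouse chromosome 7, fell most: it stood at 103.8, 101.0 and 122.8 in siSirt6 and 247.8, 199.6 and 222.1 in Control libraries. Its siSirt6 values were all under every Control value, at 0.489 of the Control level (log2 fold change -1.02 ± 0.122 SE, adjusted p = 4.92e-09), a difference of -1.32 with the trend removed. Slc22a17, known as a receptor of lipocalin-2, stood at 302.6, 284.5 and 269.5 in siSirt6 and 445.9, 437.2 and 485.8 in Control libraries (log2 fold change -0.67 ± 0.0795 SE, adjusted p = 3.76e-09). Slc22a23, of unknown substrate, stood at 86.0, 74.2 and 79.1 in siSirt6 and 114.2, 112.0 and 102.4 in Control libraries (log2 fold change -0.45 ± 0.148 SE, adjusted p = 0.0051). With the trend removed the call of Slc22a23 was lost, at -0.25 with an adjusted p of 0.11.

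The choline carriers went opposite ways. Slc44a1, the plasma membrane choline carrier, stood at 620.0, 620.6 and 601.5 in siSirt6 and 855.7, 864.6 and 919.4 in Control libraries (log2 fold change -0.52 ± 0.0554 SE, adjusted p = 4.6e-10). Its relative Slc44a2, with 1266.9 per kilobase in siSirt6 libraries beside 140.1 for Slc44a1, was a little higher, at 5182.4, 5162.6 and 5150.3 in siSirt6 and 4464.1, 4406.7 and 4503.4 in Control libraries (log2 fold change 0.21 ± 0.0256 SE, adjusted p = 6.06e-09). In the choline and phosphatidylcholine list, 6 of 13 were tested, 3 higher and 3 lower; the rate-limiting enzyme of phosphatidylcholine synthesis Pcyt1a had a ratio of 0.706 and the ethanolamine enzyme Pcyt2 of 1.30, at log2 values of -0.31 and 0.14 with the trend removed. Slc6a8, the creatine transporter, was higher at 4707.8, 4429.7 and 4294.9 in siSirt6 and 3698.1, 3850.7 and 3823.5 in Control libraries (log2 fold change 0.24 ± 0.0306 SE, adjusted p = 2.24e-08). Slc10a7, which is known to affect calcium and bone matrix glycosylation, had a ratio of 0.739 and the orphan Slc10a3 one of 1.20; Slc10a3 shares 258 exon bases with Ubl4a on the same strand, and with listed totals or the trend removed its call was lost (adjusted p = 0.0543 and 0.313). Slc18a1, a vesicular monoamine transporter, was too low to be tested, at 12.9, 22.7 and 6.2 in siSirt6 and 6.8, 4.9 and 1.9 in Control libraries, which overlap.

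Vitamin and heme carriers went separate ways. Slc19a2, the thiamine transporter, stood at 762.4, 712.3 and 681.6 in siSirt6 and 1216.8, 1139.2 and 1249.7 in Control libraries, well apart (log2 fold change -0.74 ± 0.0527 SE, adjusted p = 2.19e-14). Slc19a1, the reduced folate carrier, stood at 457.8, 398.9 and 439.2 in siSirt6 and 318.1, 232.7 and 283.0 in Control libraries, higher in siSirt6 (log2 fold change 0.64 ± 0.0937 SE, adjusted p = 4.52e-07). Slc14a1, the urea transporter, showed the largest rise among carriers with a mean of at least 50: 117.7, 109.3 and 115.5 in siSirt6 and 41.0, 41.9 and 42.5 in Control libraries (log2 fold change 1.43 ± 0.169 SE, adjusted p = 4.02e-09). Endothelium also expresses it, and all 10 of the endothelial markers tested, of 12, were higher in siSirt6, with sums of 1969.0 to 2102.2 in siSirt6 and 1056.7 to 1224.8 in Control libraries; their part in this rise was not tested. Slc48a1, the lysosomal heme exporter, stood at 4720.5 ± 56.8 in siSirt6 and 3959.8 ± 53.3 in Control (log2 fold change 0.25 ± 0.0268 SE, adjusted p = 3.43e-10). Slc49a4, a lysosomal carrier whose promoter window was printed with those of Slc36a1 and others, stood at 1443.3 ± 41.4 in siSirt6 and 1252.4 ± 27.2 in Control (log2 fold change 0.20 ± 0.0421 SE, adjusted p = 5.28e-05), and lost its call with listed totals (adjusted p = 0.0557). Slc33a1, which carries acetyl-CoA into the endoplasmic reticulum, was at 0.755 of its Control level (log2 fold change -0.40 ± 0.0603 SE, adjusted p = 3.71e-07). The ascorbate carrier Slc23a2 (0.813), the fatty acid carrier Slc27a3 (0.76), Slc45a3 (0.858), Slc45a4 (0.889) and Slc50a1 (0.78) were lower too, and the lysosomal Slc46a3, at 23.8 ± 4.63 in siSirt6 and 59.0 ± 10.8 in Control, was at 0.404. Slc23a2 and Slc45a4 lost their call with the trend removed (adjusted p = 0.695 and 0.301).

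Of the carriers of other cations, 5 of 6 were higher and 1 lower, with a median log2 fold change of 0.28. Slc9a8, a sodium-proton exchanger of the Golgi and endosomes, stood at 613.1, 634.0 and 651.5 in siSirt6 and 388.4, 388.5 and 430.7 in Control libraries (log2 fold change 0.65 ± 0.0676 SE, adjusted p = 2.24e-10). Slc11a2, the iron importer, stood at 890.9, 881.4 and 845.0 in siSirt6 and 695.7, 672.8 and 729.2 in Control libraries (log2 fold change 0.32 ± 0.0543 SE, adjusted p = 3.26e-06). The magnesium carriers split: Slc41a1, an exporter, had a ratio of 1.19 (log2 fold change 0.25 ± 0.0606 SE, adjusted p = 0.000359) and Slc41a3 one of 0.687 (log2 fold change -0.54 ± 0.0693 SE, adjusted p = 1.99e-08). Slc8b1, the mitochondrial sodium-calcium exchanger, was at 1.14 and lost its call with the trend removed (adjusted p = 0.197); Slc9b2, another sodium-proton exchanger, was low at 18.8, 39.2 and 41.6 in siSirt6 and 14.6, 15.6 and 6.8 in Control libraries, a ratio of 2.69.

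The 5 carriers of the Slc35 family of the Golgi and endoplasmic reticulum, known mostly for nucleotide sugars, were 3 lower and 2 higher. Slc35a1, which takes CMP-sialic acid into the Golgi, stood at 679.3, 710.3 and 619.2 in siSirt6 and 886.0, 825.6 and 847.0 in Control libraries (log2 fold change -0.35 ± 0.0579 SE, adjusted p = 2.09e-06). Slc35a5 was at 0.718 of its Control level (log2 fold change -0.48 ± 0.0778 SE, adjusted p = 1.81e-06) and Slc35b4, a carrier of UDP-xylose and UDP-N-acetylglucosamine, at 0.841 (log2 fold change -0.25 ± 0.0405 SE, adjusted p = 1.53e-06). Slc35a4 was higher, at 2029.7 ± 45.0 in siSirt6 and 1726.8 ± 31.1 in Control (log2 fold change 0.23 ± 0.0365 SE, adjusted p = 8.71e-07), and Slc35b1, the ATP/ADP exchanger of the endoplasmic reticulum, at 1.08 (log2 fold change 0.11 ± 0.0393 SE, adjusted p = 0.00953) with a p of 0.0737 over all annotated genes. The direction of Slc35b4 and Slc35b1 turned with the trend removed. The scaffolds also split: Slc9a3r1 was at 0.751 of its Control level (log2 fold change -0.41 ± 0.047 SE, adjusted p = 1.69e-09) and Slc9a3r2 at 1.53 (log2 fold change 0.61 ± 0.0482 SE, adjusted p = 3.18e-13).

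Per kilobase of the longest annotated transcript, the scale on which genes can be set beside each other, the most abundant carriers were Slc48a1 at 1861.4 ± 22.4 in siSirt6 and 1561.4 ± 21 in Control, Slc1a5 at 1770.7 ± 34.1 in siSirt6 and 1889.2 ± 66.0 in Control, and Slc43a3 at 1680.0 ± 17.7 in siSirt6 and 2283.3 ± 39.6 in Control (SD, n = 3 each). Slc43a3 led in Control libraries and Slc48a1 in siSirt6 libraries. Slc3a2 followed in both groups at 1592.1 ± 25.1 in siSirt6 and 1309.1 ± 44.9 in Control. Among amino acid carriers Slc6a6 took rank 5 in siSirt6 libraries, at 496.2 ± 15.0, and rank 4 in Control libraries, at 836.5 ± 3.69.

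**Figure D3:**
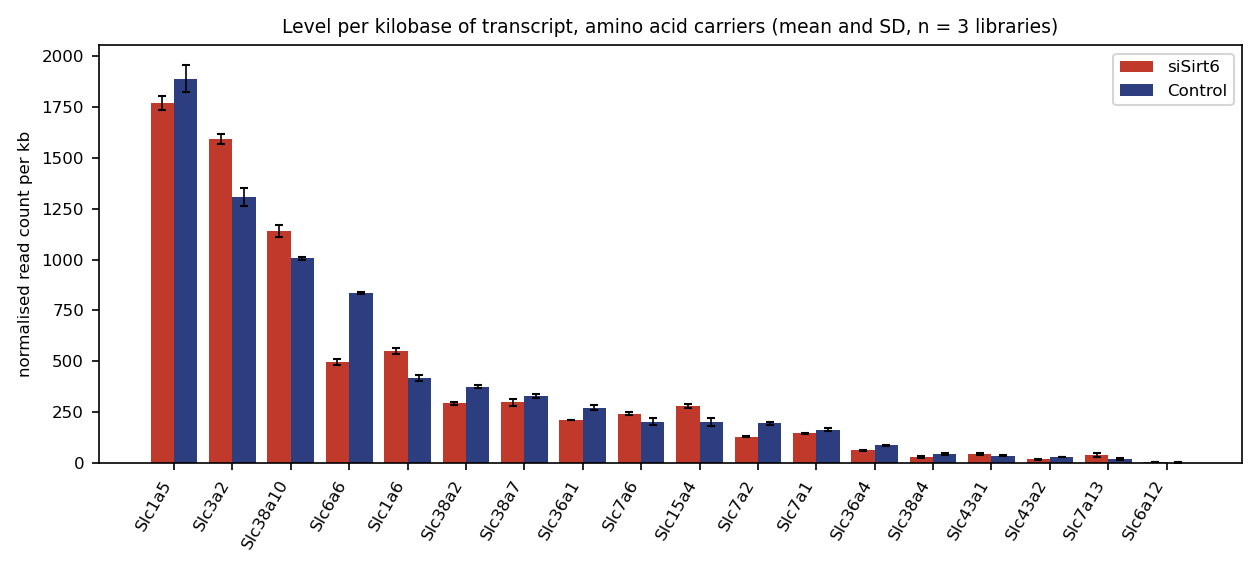
The plot gives the level per kilobase of transcript of each amino acid carrier, as mean and SD of 3 libraries, siSirt6 bars left of Control bars. Slc1a5 is the most abundant in both groups, and Slc6a6 is at 496.2 in siSirt6 and 836.5 in Control.

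The list of genes controlled by ATF4, the factor that raises amino acid carriers and synthesis enzymes when amino acids run short, had 13 of 21 tested members higher and 8 lower, a median log2 fold change of 0.12 beside 0.08 over all genes. Atf4 itself had a ratio of 1.29, Eif4ebp1 1.4 and Phgdh 1.27, and Ddit4, a brake on mTORC1, 0.676. Of the genes through which mTORC1 senses amino acids, 14 of 35 were tested, 5 higher and 9 lower, a median of -0.25. Sesn3 had 0.527 and Sesn1 0.549 of their Control levels, and the lysosomal anchors Lamtor1 and Lamtor5 ratios of 1.23 and 1.35. Without the trend the log2 value of Lamtor5 was 0.06 and that of Lamtor1 0.14, Atf4 was at 0.14 and Phgdh at 0.11. In the glutathione list, which depends on cystine and glutamate supply, 6 of 10 tested were higher and 4 lower with a median of 0.20: Gpx1 at 1.31, Gpx4 at 1.19, Ggt7 at 1.49 and the limiting ligase subunit Gclc at 0.739. After the length and GC trend was taken out Gpx1 and Gpx4 turned, to -0.01 and -0.14 on the log2 scale. Carbonic anhydrases, which make the bicarbonate the Slc4 carriers move, were 3 higher and 2 lower of 5 tested. Car2 was at 1.86 and Car13 at 1.16, while Car3 was at 0.836 and Car5b at 0.851.

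The direction of a gene's difference went with transcript length in these libraries: across the 7130 tested genes with a length, the Spearman correlation of log2 fold change with length was -0.43, and across the 64 carriers it was -0.18. The points share the same 6 libraries, and genes are not replicates. The longest transcripts of the carriers had a median of 3929 bases, against 3383 over all tested genes. Of the 39 with a transcript longer than the median of the tested genes, 14 were higher and 25 lower; of the 25 up to it, 12 were higher and 13 lower. With the joint trend on length and GC content removed, the log2 value of 17 carriers was at most 0.5 of what it had been. Among carriers that kept their call, Slc4a7 stood at -0.33, Slc36a4 at -0.19, Slc1a6 at 0.18, Slc48a1 at 0.11, Slc36a1 at -0.20, Slc37a2 at -0.27 and Slc44a1 at -0.32, all nearer 0 than before. Slc50a1 moved to -0.68, Slc49a4 to 0.43, Slc22a18 to -1.32, Slc9a3r1 to -0.64, Slc41a3 to -0.71 and Slc4a4 to 0.73, all farther from 0. These are examples, and other carriers also moved farther from 0. The parts of length and of GC content in the differences were not tested.

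**Figure D4:**
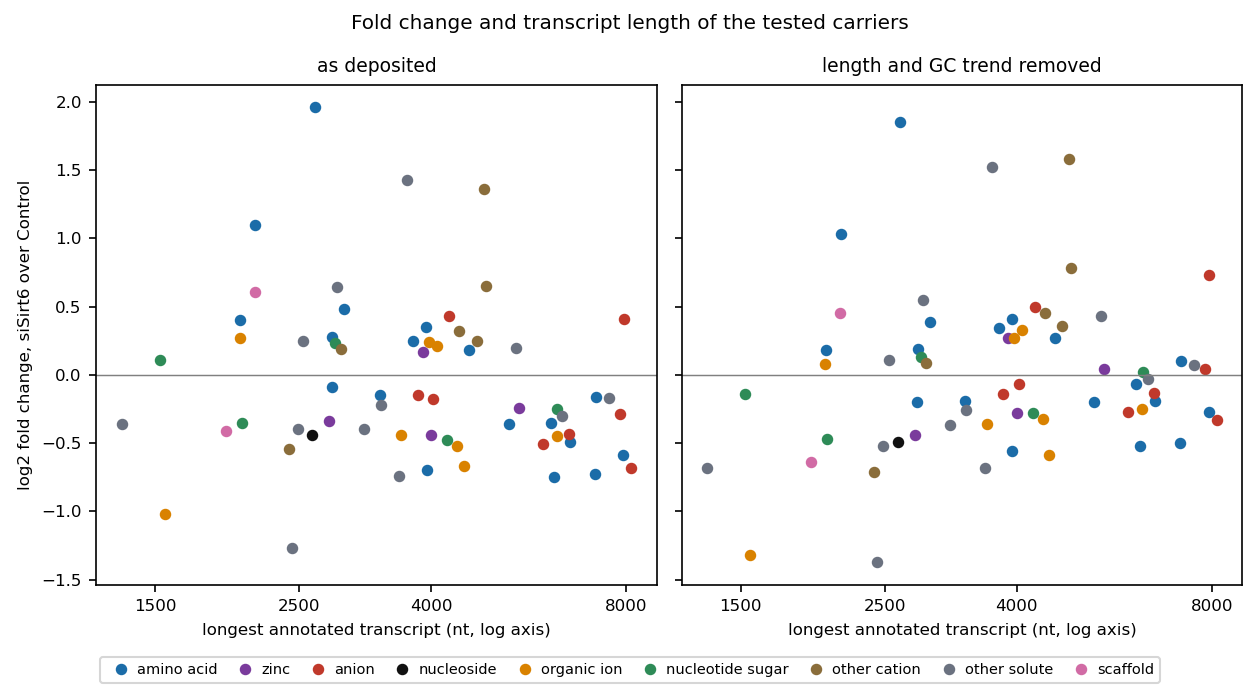
Each point is a tested carrier, placed by its longest annotated transcript (log axis, nucleotides) and its log2 fold change of siSirt6 over Control, as deposited (left panel) and without the length and GC trend (right panel). Points of long transcripts move up from the left panel to the right, and Slc4a4, with a length of 7931, from 0.41 to 0.73.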

How the data were processed

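RNA was measured in 3 siSirt6 and 3 Control libraries of mouse aortic smooth muscle cells, made with a stranded mRNA kit per the labels' protocols. The tools named, per the submitters' processing notes, are Trimmomatic, HISAT2, Cufflinks and HTSeq, with the build mm10; the sources used here do not give their versions, roles or order. The deposited values are a signal per gene, called normalised read counts in the text: whole reads divided by 1 factor per library, since 100% of values in each library came out whole within 0.001 reads. The sources used here do not say how the authors set the factors or chose the 7384 genes, and total library depth is unknown.

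The test was limma (version 3.58.1, run in R 4.3.3), 2-sided, with a trended and robust empirical Bayes step, applied to log2(value + 1), a scale that understates the change of low genes. A gene entered the test if 3 or more libraries reached a value of 10, which left out 205 genes. P-values were adjusted by Benjamini-Hochberg across the remaining 7179, and 0.05 was the threshold. Ratios are siSirt6 over Control means of the deposited values. Positions, longest transcripts and GC content came from GENCODE M 21 on GRCm38, in which 7332 identifiers were found, 7331 with a length and GC content. The fit was also run on simulated data in which only a small part of the genes was changed. Nearly all genes differ in these tables, so that run does not check the calls made here.

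The carriers were taken by symbol and sorted by substrate. Full statistics go to the 4 carriers of each class with the largest change among those with a mean of at least 50 and separate group ranges, and to the 2 most abundant; from each pathway list the 4 genes with the smallest p are the ones eligible to be named. The members, classes and lists were chosen with earlier results of these data known. Alternatives were other scalings (listed totals, TMM), pseudocounts of 0.5 and 5, other filters, each library left out, a replicate block, adjustment over 55536 annotated genes, removal of a smooth length and GC trend, and edgeR 4.0.16, limma-voom and DESeq2 1.42.0 on the recovered reads of 5 libraries, without siSirt6 replicate 1, whose step was too near 1 to be accepted by the unit check. edgeR called 3546 genes higher and 3469 lower, limma-voom 3555 and 3453, and DESeq2 2945 and 3293.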

Additional observations from a re-analysis of the deposited data

How the results depend on the processing

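Of the 64 carriers tested, 16 lost or reversed a call in at least 1 alternative and 48 in none that was run on them; Slc46a3, Slc7a13, Slc6a12 and Slc9b2 were left out by the mean of at least 5 CPM and so have no value there. The median log2 fold change of the carriers, -0.20, was -0.32 with listed totals, -0.23 with TMM, -0.17 with no filter, -0.23 with a mean of at least 5 CPM, -0.07 with the length and GC trend removed, -0.23 with DESeq2, and -0.22 to -0.18 with each library left out. Carriers past 2-fold, 6 in all, were 2 among those with a mean of at least 5 CPM. With listed totals no zinc carrier (0) was higher in siSirt6, and with the trend removed 3 anion carriers were lower in place of 6. With the trend removed the log2 fold change turned to 0.02 for Slc35b4, 0.04 for Slc30a4, 0.10 for Slc7a1, 0.04 for Slc26a2, 0.07 for Slc45a4 and -0.14 for Slc35b1, which was also -0.01 with listed totals and missed the threshold without Control replicate 2 (adjusted p = 0.103). DESeq2 on 5 libraries lost the calls of Slc43a1, Slc10a3 and Slc35b1 (adjusted p = 0.127, 0.0967 and 0.167), and listed totals that of Slc8b1 (adjusted p = 0.272). The alternatives take out a trend or a scaling and do not say which value is right; the cause was not tested.

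The replicate numbers did not pair the libraries: the correlations of same-numbered deviations were -0.019, 0.027 and -0.001. With a replicate block, 26 carriers were higher and 38 lower, as without it, and of all genes 3629 were higher and 3540 lower.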
